A study of Rattus norvegicus with 6 samples.

Results

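The comparison described here sets 2 libraries from rats with an ischaemic hind limb (CPIP+Veh) against 2 libraries from sham rats (Sham+Veh), 4 of the 6 bulk RNA-seq libraries in the series, across all genes. The members were taken from the library titles alone and not from any measured value. Each library was made from dorsal root ganglia of segments L4 to L6 on the operated side of wild-type rats, and the ring size given in the protocol is that for males; the labels name no strain or age. For CPIP, an O-ring was tied near the ankle for 3 h under pentobarbital and then taken off. Sham rats received the anaesthetic with no ring. Rats of both groups received vehicle (Veh) by daily intrathecal injection from day 2, so any effect of the injections is shared, and the ganglia were collected on day 7. The other 2 libraries came from rats with the ring that were given etanercept (CPIP+ETA), and here they serve mainly to estimate the spread between libraries. Whether the 2 libraries of a group stem from different rats, or from pooled ganglia, is not stated; p-values therefore measure only how these samples spread, and that spread may be technical.

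Dorsal root ganglia house the somata of sensory neurons that serve the limb, wrapped by satellite glia and mixed with Schwann cells, macrophages, fibroblasts and vessels. The ring cuts off blood flow to the paw, at a distance from the ganglion. Sensory neurons whose axons are damaged are known to switch on a set of transcription factors led by Atf3, Sox11 and Jun, to make neuropeptides such as Npy, Gal and Vip that they hardly make otherwise, and to raise proteins used for axon growth. The comparison asks how far the ganglion carries such a response, and what its other cells do, a week after the ischaemia.

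Library totals in the 4 libraries ran from 18285251 to 19825780 counts, and 17773 to 17921 genes had at least 1 count. Levels below are TMM-scaled CPM, a count scaled to library size after edgeR's correction for library composition, listed as Sham+Veh 1 and 2 and then CPIP+Veh 1 and 2. The sensory neuron markers Prph and Scn10a, whose values are given further on, were abundant in all 4 libraries. Libraries of 1 group were hardly closer to each other than to the other group: the Spearman correlation across genes was 0.993 for the Sham+Veh pair and 0.993 for the CPIP+Veh pair, while the 4 pairs across groups gave 0.992 to 0.993. The median absolute log2 difference over genes was 0.11 between the 2 libraries of either pair. Between group means it was 0.08, but means of 2 libraries vary less than single libraries. These 2 figures therefore do not show whether the groups differed less than the replicates. CPIP+Veh 2 stood apart in skeletal muscle transcripts, a tissue outside the ganglion: Acta1, Myh4 and Ckm summed to 11.9, 19.2, 11.4 and 45.4 CPM. Their part in the results below was not tested.

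Across 15531 genes tested, edgeR's quasi-likelihood test called 3 genes at a Benjamini-Hochberg adjusted p under 0.05, 0.0193% of those tested, all of them higher in CPIP+Veh. The alternative test, DESeq2, called 49 (0.315%), of which 33 were higher (0.212%) and 16 lower (0.103%), the 3 edgeR genes among them, and limma-voom called 2 (0.0129%). Without any adjustment, 364 genes were higher with an edgeR p under 0.05 (2.34%) and 403 were lower (2.59%), 767 in all (4.94%). This background depends on the libraries in the fit. With only the 4 libraries compared, 466 were higher and 528 lower of 15307 tested. Sham and CPIP+Veh did not overlap, meaning that both libraries of a group lay beyond both of the other, for 2734 genes with CPIP+Veh above (17.6%) and 3024 with CPIP+Veh below (19.5%). For sets of genes these shares are the background against which counts are read, and a share near them says nothing about the set. The lists were chosen with earlier results of these data known, so a share beyond the background describes a list and does not test it. The median log2 fold change over all genes was -0.00.

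**Figure D1:**
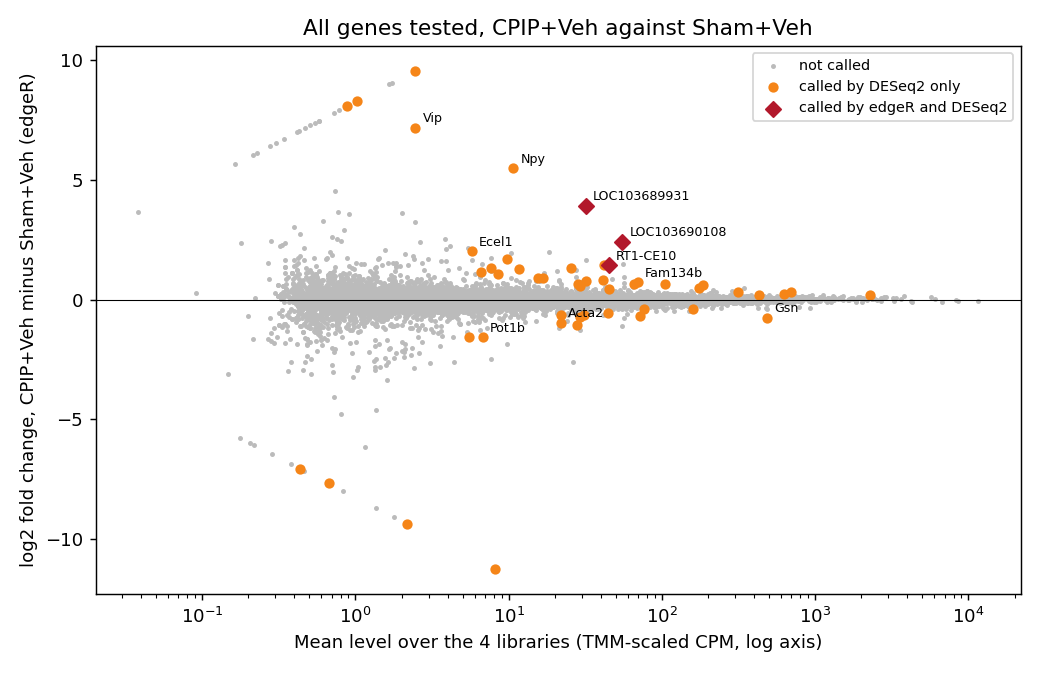
Log2 fold change of CPIP+Veh minus Sham+Veh from edgeR (vertical axis) against the mean level over the 4 libraries in TMM-scaled CPM (horizontal log axis) for every gene tested. Diamonds are the 3 genes called by edgeR and DESeq2, orange points the genes that only DESeq2 called; the diagonal streaks at the left are genes with no reads in 1 group, whose fitted fold change depends on the prior count.

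The 3 genes called by edgeR stood at nearly the same level in both CPIP+Veh libraries. LOC103690108 was at 17.9 and 16.7 CPM in sham and at 92.8 and 93.4 CPM in CPIP+Veh (log2 fold change 2.42, SE 0.07, edgeR adjusted p = 0.000129). LOC103689931 was at 2.17 and 5.69 CPM in sham and at 59.3 and 60.3 CPM in CPIP+Veh (3.93, SE 0.31, edgeR adjusted p = 0.0337). Both symbols are provisional and the table used here gives them no function. RT1-CE10, a classical-type MHC class I gene, was at 25.2 and 23.4 CPM in sham and at 65.4 and 65.8 CPM in CPIP+Veh (1.43, SE 0.10, edgeR adjusted p = 0.0196). None of the 3 overlapped between the groups. They were also high in the CPIP+ETA libraries, which share the ring: LOC103690108 at 93.1 and 86.5 CPM, LOC103689931 at 56.2 and 68.9 CPM, and RT1-CE10 at 61.1 and 51.0 CPM. Of the 3 calls, that of LOC103690108 alone held in each of the fits without 1 library, and the count was 1 without CPIP+Veh 2.

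The genes that DESeq2 called higher included proteins of injured and growing neurons beside the neuropeptides and MHC genes described further on. Gpm6a, a membrane glycoprotein that promotes neurite growth, was at 34.1 and 26.2 CPM in sham and at 55.5 and 49.2 CPM in CPIP+Veh (log2 fold change 0.80, SE 0.14, DESeq2 adjusted p = 0.00214, edgeR adjusted p = 0.444). Anxa8, an annexin that binds membranes in a calcium-dependent way, was at 13.9 and 15.4 CPM against 27.6 and 45.6 CPM (1.32, SE 0.23, DESeq2 adjusted p = 0.000157, edgeR adjusted p = 0.444). Cpne7, a calcium-dependent phospholipid-binding copine, was at 4.01 and 4.71 CPM against 11.9 and 9.89 CPM (1.32, SE 0.22, DESeq2 adjusted p = 0.00729, edgeR adjusted p = 0.422). In these genes every CPIP+Veh library lay above both sham libraries, a condition of the rule by which DESeq2-called genes were named. The libraries of Anxa8 were apart by more than those of Gpm6a or Cpne7. Pcdhb3, a clustered protocadherin involved in how neurites recognise each other, was at 4.66 and 6.29 CPM against 11.8 and 11.1 CPM (1.07, DESeq2 adjusted p = 0.0148, edgeR adjusted p = 0.375). Rexo4, a predicted RNA exonuclease, was at 22.7 and 24.2 CPM against 45.1 and 35.8 CPM (0.78, DESeq2 adjusted p = 0.03, edgeR adjusted p = 0.695). The gene listed as gene-Katnbl1, whose product regulates the microtubule-severing protein katanin, had 0 counts in sham and 81 in CPIP+Veh (DESeq2 adjusted p = 0.00264, edgeR adjusted p = 0.494). It was at least 25.1-fold higher when 3 counts are taken as the floor for the group.

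A pair of these genes work in membranes and vitamin A metabolism. Fam134b (RefSeq symbol Retreg1), a receptor that delivers endoplasmic reticulum to autophagy and whose loss causes a sensory and autonomic neuropathy, was at 57.6 and 46.5 CPM in sham and at 83.9 and 89.4 CPM in CPIP+Veh (0.74, SE 0.11, DESeq2 adjusted p = 1.27e-05, edgeR adjusted p = 0.322). Retsat, which saturates retinol, was at 88.9 and 75.1 CPM against 129.6 and 125.1 CPM (0.64, SE 0.08, DESeq2 adjusted p = 8e-07, edgeR adjusted p = 0.304). Neither gene overlapped between the groups, a condition of the naming rule in the case of Fam134b. Among other genes of their pathways, the 30 members of the lysosome and autophagy list had a median of 0.02 (log2 fold change), with 2 higher and 0 lower at an unadjusted edgeR p under 0.05, and the retinoid list had a median of 0.01 over 23 members, with 1 higher, Retsat itself, and 0 lower.

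The 16 genes that DESeq2 called lower had varied roles. Of these, 5 have provisional symbols and are not described. Wbp11l1 and Tbcb fell outside the naming rule and are named after their values were seen: Wbp11l1 had all of its 598 sham counts in Sham+Veh 1 and 0 in the other 3 libraries compared, and Tbcb, a tubulin-folding cofactor, had 32 counts in sham and 0 in CPIP+Veh. Gsn, gelsolin, which severs actin filaments, was at 605 and 609 CPM in sham and at 345 and 375 CPM in CPIP+Veh (-0.75, SE 0.09, DESeq2 adjusted p = 1.46e-12, edgeR adjusted p = 0.207). Among the 9 genes that qualified by the naming rule on this side, Gsn was the most abundant. Zmiz2, a coregulator of transcription with a SUMO ligase-like domain, was at 34.9 and 40.9 CPM against 16.9 and 19.7 CPM (-1.05, SE 0.14, DESeq2 adjusted p = 7.71e-06, edgeR adjusted p = 0.304). Pot1b, which protects telomere ends, was at 7.58 and 12.7 CPM against 3.34 and 3.43 CPM (-1.58, SE 0.34, DESeq2 adjusted p = 0.0191, edgeR adjusted p = 0.695). The CPIP+ETA libraries, with the ring as well, were mixed for these genes. There Gsn was at 355 and 420 CPM, but Pot1b was at 7.96 and 13.7 CPM. Wbp11l1 had 0 and 609 counts and Tbcb 12 and 12 counts in CPIP+ETA 1 and 2.

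Further down in size came genes with very close replicates. Capns1, the small regulatory subunit of the calpain proteases, was at 53.5 and 52.9 CPM against 35.6 and 35.9 CPM (-0.57, SE 0.08, DESeq2 adjusted p = 0.00214, edgeR adjusted p = 0.322). Spg7, the mitochondrial protease paraplegin, was at 87.6 and 85.5 CPM against 65.6 and 64.9 CPM (-0.41, SE 0.05, DESeq2 adjusted p = 0.00234, edgeR adjusted p = 0.304). Hnrnpab, an RNA-binding protein, was at 184 and 178 CPM against 144 and 131 CPM (-0.40, SE 0.06, DESeq2 adjusted p = 0.000844, edgeR adjusted p = 0.375). In all of these genes both CPIP+Veh libraries lay below both sham libraries, a condition of the naming rule. Acta2, Myh11 and Col15a1, the rest of this side, are described with the vessel wall. The DESeq2 count rests on single libraries too: it was 18 without Sham+Veh 2, with 9 of the 49 genes among them, and 32 without Sham+Veh 1.

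Among the transcription factors of axon injury, Atf3, the usual marker of a damaged sensory neuron, was at 7.69 and 6.89 CPM in sham and at 16.3 and 42.1 CPM in CPIP+Veh (log2 fold change 2.00, SE 0.66, edgeR adjusted p = 0.938). Sox11, a factor of developing neurons that returns after axotomy, was at 2.65 and 2.74 CPM against 4.35 and 5.50 CPM (0.87, SE 0.20, edgeR adjusted p = 0.711). Klf7, which favours axon growth, was at 62.3 and 69.5 CPM against 75.7 and 73.6 CPM (0.18, SE 0.07, edgeR adjusted p = 0.938). These were the 3 lowest p-values of the list, and none of them overlapped between the groups. Jun, the partner of Atf3 in the injury response, did overlap, at 119 and 102 CPM against 105 and 154 CPM. Over the 22 factors the median log2 fold change was 0.05, and 3 were higher and 0 lower at an unadjusted edgeR p under 0.05. Of the 22, 6 lay wholly above sham and 2 wholly below (background 17.6% and 19.5%). Without CPIP+Veh 2 the median was 0.02 with 1 higher, without Sham+Veh 1 there were 1 higher and 1 lower, and without CPIP+Veh 1 the median was 0.08 with 5 higher.

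Of the injury neuropeptides, Vip and Npy were nearly absent in sham and present in both CPIP+Veh libraries. Vip, a vasodilator peptide, had 0 and 0.0547 CPM in sham and 3.29 and 6.51 CPM in CPIP+Veh (7.18, SE 1.33, DESeq2 adjusted p = 0.00802, edgeR adjusted p = 0.477). From 1 and 194 counts the ratio was 180.1 (95% exact binomial interval 31.9 to 7150, counting error only). Npy, an inhibitory peptide that large sensory neurons make after nerve injury, was at 0.325 and 0.602 CPM against 6.08 and 35.8 CPM (5.48, SE 1.45, DESeq2 adjusted p = 0.0494, edgeR adjusted p = 0.85). Gal, galanin, was at 5.47 and 3.89 CPM against 7.49 and 14.0 CPM (1.20, SE 0.34, edgeR adjusted p = 0.938). All 3 were higher in CPIP+Veh 2 than in CPIP+Veh 1, yet lay above sham in both. In CPIP+ETA 1 and 2, which share the ring, Vip was at 0.0504 and 0.980 CPM and Npy at 1.41 and 12.9 CPM. Vip in CPIP+ETA 1 thus stood at the sham level. Adcyap1, the precursor of PACAP, was at 77.97 and 61.3 CPM against 81.6 and 97.3 CPM (0.36, SE 0.13, edgeR adjusted p = 0.938). Among the receptors, Npy2r, a presynaptic NPY receptor that restrains transmitter release, was at 11.7 and 9.80 CPM against 14.8 and 14.8 CPM (0.46, SE 0.12, edgeR adjusted p = 0.824). Of the 21 peptides and receptors tested, 11 had a log2 fold change above 0 and 10 below (background 49% and 51%), with a median of 0.11. Wholly above sham lay 10 and wholly below 1 (background 17.6% and 19.5%). At an unadjusted edgeR p under 0.05, 6 were higher and 0 lower (background 2.34% and 2.59%). Without CPIP+Veh 2 the count of 6 became 3.

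The promoter of Vip is shown because that gene had the largest fold among these peptides and because its family of sites, the cyclic AMP response element, is bound by CREB and ATF proteins. The promoter of Fam134b is shown beside it. Each line gives the 120 bases before the annotated start, 5′ to 3′ on the gene's strand, from RefSeq on the GRCr8 build, which is later than the Rnor_6.0 build of the counts. Capitals mark TGACGTC in Vip (chr1:44470360-44470479, plus strand) and TGACGTCA in Fam134b (chr2:78066004-78066123, plus strand), searched on both strands.
Vip: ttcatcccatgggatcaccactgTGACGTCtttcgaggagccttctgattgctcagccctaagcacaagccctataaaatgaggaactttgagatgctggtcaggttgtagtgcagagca
Fam134b: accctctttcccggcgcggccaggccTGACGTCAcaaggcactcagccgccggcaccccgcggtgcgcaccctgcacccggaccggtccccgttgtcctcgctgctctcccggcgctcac
Over the 250 bases before each start, TGACGTC occurred in 2.8% of 33469 promoters and the full palindrome TGACGTCA, which contains it, in 1.59%. Of the 18 genes of the neuropeptide list with a promoter in the table, 2 held TGACGTC (Vip and the substance P receptor Tacr1) and 0 held TGACGTCA. A match describes letters in the window and not a site in use.

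Genes for the axon and the growth cone, a list not chosen blind to these data, lay above sham more often than genes at large. Of 41 regeneration effectors listed, 36 passed the filter on low counts. Of these, 29 had a log2 fold change above 0 (background 49%), and the median was 0.21. Wholly above sham lay 23 and wholly below 2 (background 17.6% and 19.5%). At an unadjusted edgeR p under 0.05, 16 were higher and 1 was lower; DESeq2 called 5 of them higher and 0 lower, while 0 of the 36 were among the genes edgeR called. Without CPIP+Veh 2 the median was 0.13 and 10 were higher, without Sham+Veh 1 10 were higher, and without CPIP+Veh 1 the median was 0.35 and 18 were higher. Most members were higher in CPIP+Veh 2 than in CPIP+Veh 1 (31 of 36), against 20 of 36 higher in Sham+Veh 2 than in Sham+Veh 1.

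Within this list the secreted lectins and muscle-type proteins had large folds from low levels. Reg3b, a lectin released by injured neurons, was at 0.812 and 0.930 CPM in sham and at 2.48 and 4.14 CPM in CPIP+Veh (1.92, SE 0.35, edgeR adjusted p = 0.477). Sprr1a, a cornified-envelope protein that injured neurons make, had 0 counts in sham and 5 and 19 counts in CPIP+Veh, at least 7.43-fold higher with the same floor, and was too low to be tested. Ecel1, a membrane protease of the neprilysin family induced by nerve injury, was at 2.17 and 2.35 CPM against 5.62 and 12.9 CPM (2.03, SE 0.46, DESeq2 adjusted p = 0.0208, edgeR adjusted p = 0.707). Csrp3, a LIM protein best known from muscle and chosen after its values were seen, was at 0.108 and 0.164 CPM against 1.22 and 2.17 CPM (3.57, SE 0.79, edgeR adjusted p = 0.695). None of these 4 genes overlapped between the groups.

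Abundant neuronal genes had smaller folds. Tubb2b, a tubulin of growing axons, was at 628 and 613 CPM in sham and at 738 and 823 CPM in CPIP+Veh (0.33, SE 0.06, DESeq2 adjusted p = 0.00081, edgeR adjusted p = 0.48). Stmn4, a stathmin that destabilises microtubules, was at 21.4 and 22.7 CPM against 30.8 and 38.8 CPM (0.66, SE 0.12, DESeq2 adjusted p = 0.0289, edgeR adjusted p = 0.494). Gap43, the growth cone protein, was at 267 and 237 CPM against 295 and 344 CPM (0.35, SE 0.09, edgeR adjusted p = 0.85). Each of them lay above sham in both CPIP+Veh libraries. Prph, the intermediate filament peripherin, was at 2172 and 2114 CPM against 2412 and 2447 CPM (0.18, SE 0.04, DESeq2 adjusted p = 0.00513, edgeR adjusted p = 0.752). Kif5c, a kinesin motor of axonal transport, was at 588 and 571 CPM against 679 and 673 CPM (0.22, SE 0.05, DESeq2 adjusted p = 0.0488, edgeR adjusted p = 0.775); it was chosen after its values were seen.

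Molecules tied to pain signalling were part of the same list. Cacna2d1, the calcium channel subunit that gabapentin binds, was at 144 and 148 CPM in sham and at 185 and 219 CPM in CPIP+Veh (0.47, SE 0.09, DESeq2 adjusted p = 0.00264, edgeR adjusted p = 0.507). Bdnf, a neurotrophin that sensitises spinal neurons, was at 22.5 and 24.2 CPM against 34.4 and 35.3 CPM (0.58, SE 0.11, edgeR adjusted p = 0.52). Neither overlapped between the groups, and the Bdnf values were close within each. Gch1, the first enzyme of tetrahydrobiopterin synthesis, overlapped at 1.90 and 0.876 CPM against 1.01 and 1.82 CPM.

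**Figure D2:**
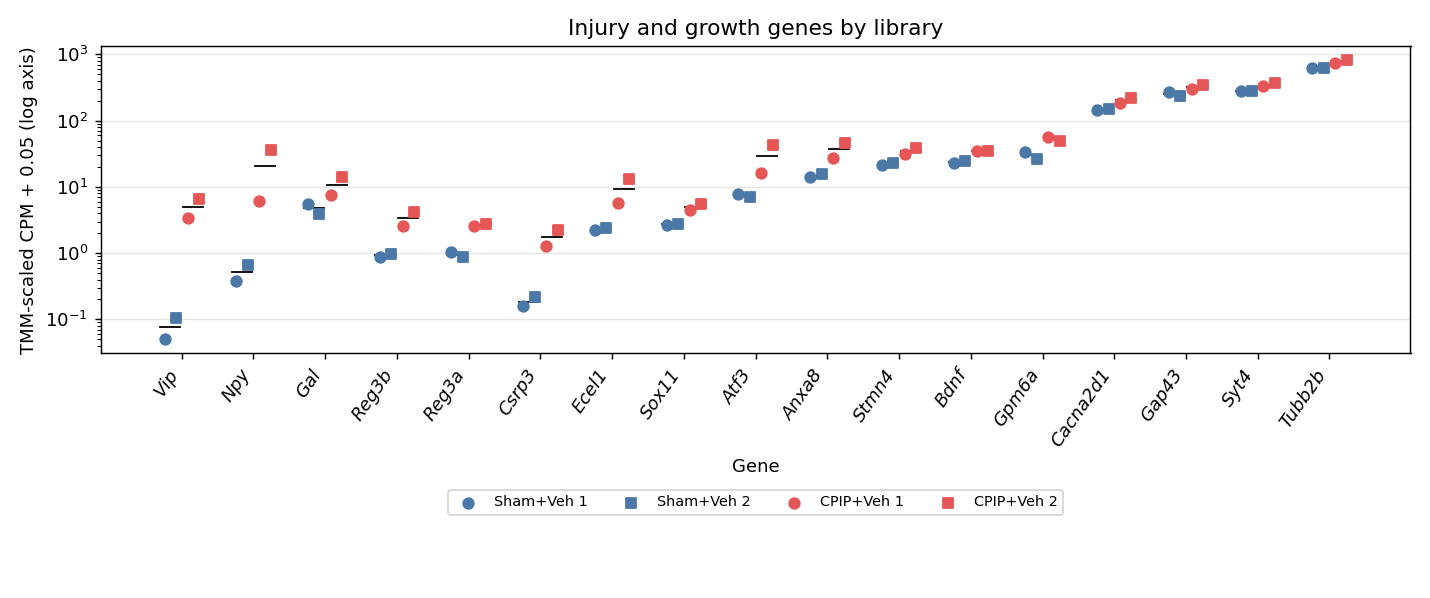
Level in each library (TMM-scaled CPM plus 0.05, log axis) of 17 genes of axon injury and growth; blue is Sham+Veh and red CPIP+Veh, circles are library 1 and squares library 2, and black bars are group means. Both red points lie above both blue points for every gene drawn, and for Npy and Atf3 the red points are far apart (6.08 and 35.8 CPM, and 16.3 and 42.1 CPM). Members of the same lists that overlapped, such as Jun and Gch1, are not drawn, so the shared separation reflects the choice of genes.

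The genes that define sensory neuron classes stayed close to sham. Over 26 nociceptor markers the median log2 fold change was -0.02, and 1 was higher and 2 were lower at an unadjusted edgeR p under 0.05. DESeq2 called 1 of the 26 higher and 0 lower. Of the 26, 2 lay wholly above and 4 wholly below sham (background 17.6% and 19.5%). Prdm12, the transcriptional regulator required for nociceptors to form, was at 133 and 140 CPM in sham and at 118 and 114 CPM in CPIP+Veh (-0.23, SE 0.06, edgeR adjusted p = 0.85). Prdm8, a related regulator, was at 29.6 and 31.6 CPM against 25.1 and 26.2 CPM (-0.25, SE 0.08, edgeR adjusted p = 0.938). Both lay below sham without overlap. Scn10a, the nociceptor sodium channel Nav1.8, was at 616 and 637 CPM against 585 and 598 CPM, a log2 fold change of -0.08 (SE 0.05). Trpv1, the capsaicin receptor, overlapped at 129 and 127 CPM against 127 and 136 CPM.

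Markers of large, myelinated sensory neurons lay slightly lower as a list. Of 21 tested, 4 had a log2 fold change above 0 (background 49%), and the median was -0.08. Wholly below sham lay 7 and wholly above 1 (background 19.5% and 17.6%). Calb2, calretinin, was at 80.2 and 74.4 CPM in sham and at 60.1 and 62.2 CPM in CPIP+Veh (-0.34, SE 0.09, edgeR adjusted p = 0.824). Whrn, the scaffold protein whirlin, was at 32.0 and 30.9 CPM against 24.4 and 26.3 CPM (-0.31, SE 0.09, edgeR adjusted p = 0.938). Both were without overlap, and they were the 2 members lower at an unadjusted p under 0.05. The median of the list was -0.03 without Sham+Veh 1 and -0.05 without CPIP+Veh 2, with 7 members above 0 in either case.

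Potassium channels, which set the resting excitability of these neurons, leaned the same way by small amounts. Of 36 voltage-gated channel genes and their partners, 9 had a log2 fold change above 0, the median was -0.09, 13 lay wholly below sham (background 19.5%) and 3 wholly above, and 1 was lower at an unadjusted edgeR p under 0.05. That count was 4 without CPIP+Veh 2 (median -0.05), 2 without CPIP+Veh 1 or Sham+Veh 2, 3 without either or both of the CPIP+ETA libraries or with the replicate block, and 0 without Sham+Veh 1. Kcnip3, a calcium sensor that binds Kv4 channels, was at 230 and 244 CPM in sham and at 217 and 173 CPM in CPIP+Veh, and Kcnq5, an M-current channel, at 66.5 and 62.8 CPM against 54.8 and 48.7 CPM. Both lay below sham without overlap. The 28 other potassium channels had a median of -0.03, with 0 higher and 1 lower at an unadjusted edgeR p under 0.05.

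Sodium, calcium and HCN channels had a median of -0.07 over 35 members, with 1 higher and 2 lower at an unadjusted edgeR p under 0.05. The higher member was Cacna2d1. Hcn4, a slow pacemaker channel, was at 8.99 and 9.63 CPM in sham and at 5.72 and 6.25 CPM in CPIP+Veh (-0.64, SE 0.18, edgeR adjusted p = 0.938). Cacna2d2, a relative of Cacna2d1, was at 77.9 and 79.0 CPM against 68.7 and 73.3 CPM (-0.14, SE 0.06, edgeR adjusted p = 0.938). Cacna2d1 and Cacna2d2 thus lay on opposite sides of sham, both without overlap. Opioid and other inhibitory receptors had a median of 0.02 over 25 members with 0 higher and 0 lower at an unadjusted edgeR p under 0.05. Among GABA and glutamate receptor subunits (median 0.01, 28 members, 2 higher and 0 lower), Gabra5, a subunit of extrasynaptic GABA-A receptors, was at 7.36 and 6.79 CPM against 11.9 and 10.9 CPM (0.69, SE 0.12, edgeR adjusted p = 0.425). Among the 32 genes of vesicle release (median 0.00), Syt4, a synaptotagmin of dense-core vesicles, was at 279 and 277 CPM against 336 and 364 CPM (0.33, SE 0.06, DESeq2 adjusted p = 0.0022, edgeR adjusted p = 0.477).

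MHC class II molecules present peptides from outside the cell to CD4 T cells and are carried mainly by macrophages and other professional presenting cells. Of 19 members of the class II list, 12 lay wholly above sham and 1 wholly below (background 17.6% and 19.5%), 9 were higher and 0 lower at an unadjusted edgeR p under 0.05, DESeq2 called 2 higher, and the median log2 fold change was 0.22. Without CPIP+Veh 2 the count of 9 became 3, without Sham+Veh 1 it was 5, without Sham+Veh 2 it was 4, and by the unadjusted p of DESeq2 it was 5. Without CPIP+Veh 1 the median was 0.34. RT1-Ba, the alpha chain of the RT1-B molecule, was at 21.98 and 22.9 CPM in sham and at 44.5 and 79.3 CPM in CPIP+Veh (1.46, SE 0.25, DESeq2 adjusted p = 5.93e-06, edgeR adjusted p = 0.44). RT1-Bb, its beta chain, was at 14.9 and 15.5 CPM against 31.6 and 65.2 CPM (1.67, SE 0.36, edgeR adjusted p = 0.695). Cd74, the invariant chain that escorts class II molecules, was at 142 and 152 CPM against 195 and 250 CPM (0.60, SE 0.15, DESeq2 adjusted p = 0.0148, edgeR adjusted p = 0.775). In each of them the sham libraries were close together, and CPIP+Veh 2 lay above CPIP+Veh 1.

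Other chains, picked with their values in view, also lay above sham in both libraries. The RT1-D molecule had its alpha chain RT1-Da at 56.0 and 52.5 CPM in sham and at 74.6 and 103.5 CPM in CPIP+Veh. Its beta chain RT1-Db1 was at 32.5 and 33.9 CPM against 57.7 and 64.4 CPM. RT1-DMa, which helps load the peptide, was at 12.3 and 10.7 CPM against 14.2 and 17.1 CPM. Ciita, the coactivator that switches class II genes on, was at 3.14 and 3.06 CPM against 3.29 and 3.93 CPM (0.22, SE 0.36). Over 31 macrophage markers the median log2 fold change was 0.06, with 3 higher and 1 lower at an unadjusted edgeR p under 0.05.

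Class II promoters are known for a short conserved module that ends in an inverted CCAAT box, the Y box, bound by NFY. The 120 bases before the start are shown for 5 of the chains with values above, which lay above sham and all hold the box. They are from RefSeq on GRCr8, 5′ to 3′ on the gene's strand, with capitals at GATTGG or, where the match is on the opposite strand, its complement CCAATC. The windows are RT1-Ba at chr20:4576937-4577056 (plus strand), RT1-Bb at chr20:4604119-4604238 (minus), RT1-Da at chr20:4515295-4515414 (plus), RT1-Db1 at chr20:4560163-4560282 (minus) and RT1-DMa at chr20:4712336-4712455 (minus).
RT1-Ba: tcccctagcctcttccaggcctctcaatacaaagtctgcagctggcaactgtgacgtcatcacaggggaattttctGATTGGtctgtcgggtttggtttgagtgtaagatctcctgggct
RT1-Bb: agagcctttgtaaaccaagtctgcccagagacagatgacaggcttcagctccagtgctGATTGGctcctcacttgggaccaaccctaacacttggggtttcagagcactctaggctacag
RT1-Da: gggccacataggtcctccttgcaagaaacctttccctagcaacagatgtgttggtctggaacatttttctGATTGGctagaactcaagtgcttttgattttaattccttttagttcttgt
RT1-Db1: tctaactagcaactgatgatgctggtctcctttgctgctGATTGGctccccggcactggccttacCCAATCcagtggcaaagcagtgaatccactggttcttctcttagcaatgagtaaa
RT1-DMa: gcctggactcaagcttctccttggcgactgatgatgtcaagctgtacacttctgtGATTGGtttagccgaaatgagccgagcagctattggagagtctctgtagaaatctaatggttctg
The first base of the match on the gene's strand lay 44 bases before the start in RT1-Ba, 62 in RT1-Bb, 50 in RT1-Da, 81 in RT1-Db1 and 65 in RT1-DMa. Over the 250 bases before the start, GATTGG on either strand occurred in 12 of the 17 list genes with a promoter in the table and in 13.3% of all 33469 promoters. Cd74 and Ciita, which also lay above sham, are not shown and are not among the 12. Here and for the sites in Vip and Fam134b, list genes were counted once over all their listed starts. The background counted each promoter. RT1-Ba also carries the palindrome TGACGTCA upstream of the box, the 1 such gene among the 17 of its list with a promoter. Fam134b was likewise the 1 among 21 hereditary sensory neuropathy genes with a promoter, so neither list shares the palindrome.

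MHC class I genes lay on both sides of sham, with more of them above. RT1-CE10 was called, as described, and DESeq2 also called RT1-CE3 and RT1-A1. RT1-CE3 was at 25.3 and 22.1 CPM in sham and at 35.8 and 34.1 CPM in CPIP+Veh (0.56, SE 0.09, DESeq2 adjusted p = 0.0256, edgeR adjusted p = 0.396). RT1-A1 was at 53.9 and 48.5 CPM against 78.6 and 82.9 CPM (0.66, SE 0.12, DESeq2 adjusted p = 0.00264, edgeR adjusted p = 0.477). Other class I genes, chosen after their values were seen, lay on the opposite side: RT1-N2 was at 8.18 and 6.84 CPM against 2.13 and 0.353 CPM, and RT1-CE13 at 7.96 and 8.81 CPM against 5.67 and 3.18 CPM. The light chain B2m, which all class I molecules share, was at 588 and 594 CPM against 632 and 638 CPM (0.10, SE 0.05, edgeR adjusted p = 0.938). Over 27 members of the class I list the median was 0.08, and 19 had a log2 fold change above 0 (background 49%). Wholly above sham lay 11 and wholly below 4 (background 17.6% and 19.5%). At an unadjusted edgeR p under 0.05, 4 were higher and 2 lower (background 2.34% and 2.59%). Without CPIP+Veh 1 there were 3 higher and 7 lower, without CPIP+Veh 2 the median was 0.25 with 9 higher and 2 lower, and without Sham+Veh 1 the median was 0.14. RT1 class I genes are near-identical in sequence and can exchange reads, so single values are uncertain.

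**Figure D3:**
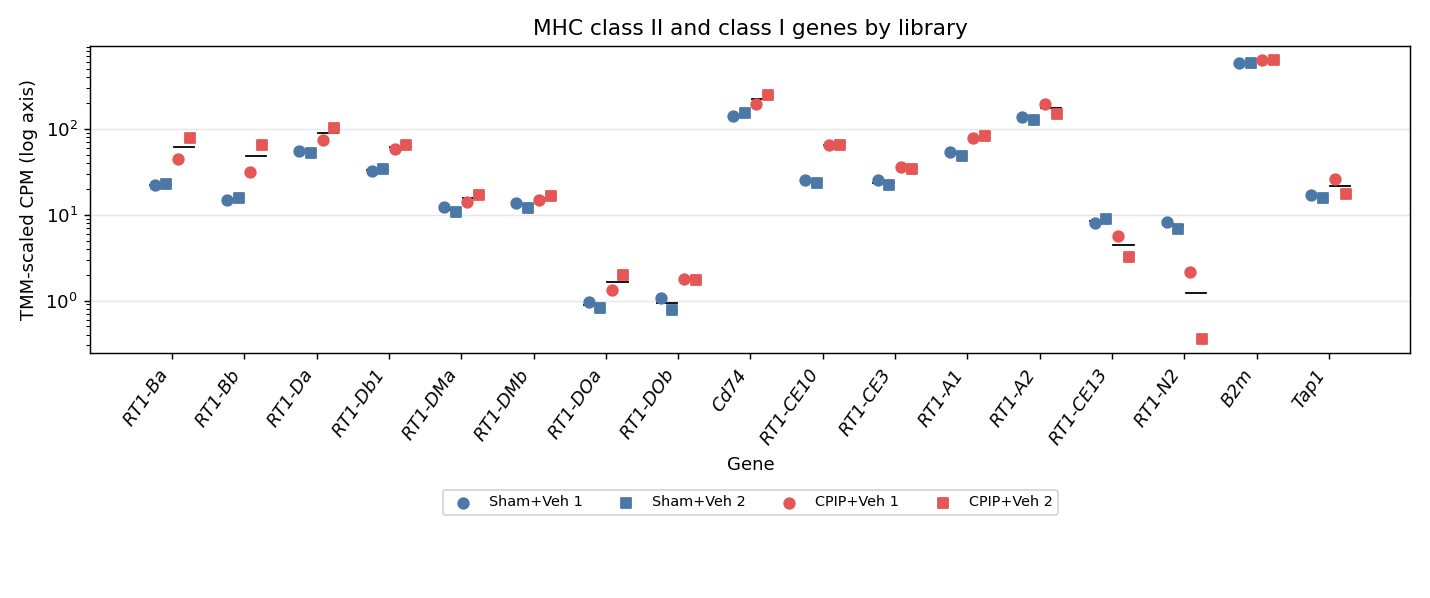
Level in each library (TMM-scaled CPM, log axis) of class II genes and Cd74 (left 9 positions) and of class I genes and their partners (right 8 positions), with colours and shapes as in the plot of injury genes. The class II genes lie above sham in both CPIP+Veh libraries, whereas RT1-CE13 and RT1-N2 lie below.

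Interferon-stimulated genes differed between the CPIP+Veh libraries more than between the groups. Of 38 tested, 35 had a log2 fold change above 0 and the median was 0.29, yet 3 lay wholly above sham and 0 wholly below, both under the background shares of 17.6% and 19.5%. Relative to the sham mean, the median member stood at 0.52 (log2 of CPM plus 0.5) in CPIP+Veh 1 and at -0.09 in CPIP+Veh 2. Mx1, an antiviral GTPase chosen after its values were seen, was at 20.5 and 17.0 CPM in sham and at 56.6 and 16.1 CPM in CPIP+Veh. Irf7, the master regulator of the response, was at 19.1 and 15.05 CPM against 31.9 and 12.9 CPM. Both overlapped through CPIP+Veh 2. Without CPIP+Veh 1 the median was -0.11, with 1 higher and 5 lower at an unadjusted edgeR p under 0.05, and without CPIP+Veh 2 it was 0.53, with 22 higher and 0 lower. Gbp2, a guanylate-binding protein, was at 28.0 and 24.5 CPM against 40.3 and 32.4 CPM (0.47, SE 0.13, edgeR adjusted p = 0.938), without overlap.

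Cytokines and the TNF pathway showed few differences at this depth. Tnf itself had 4 and 8 counts in sham and 5 and 8 counts in CPIP+Veh, too few to be tested. Its receptor Tnfrsf1a was at 51.5 and 50.7 CPM against 48.1 and 51.4 CPM (-0.04, SE 0.06), and Tnfrsf1b at 3.30 and 3.56 CPM against 3.19 and 4.49 CPM (0.16, SE 0.24), both overlapping. Among 38 members of TNF receptor and NF-kB signalling the median log2 fold change was 0.03, and 2 were higher and 0 lower at an unadjusted edgeR p under 0.05. Nfkbiz, an atypical IkB protein that NF-kB induces, was at 2.00 and 2.30 CPM against 3.90 and 3.28 CPM (0.74, SE 0.28, edgeR adjusted p = 0.938). Among 36 cytokines, chemokines and receptors (median 0.09, 3 higher and 0 lower), Ccl2, which attracts monocytes, was at 9.75 and 12.5 CPM against 16.1 and 22.2 CPM (0.78, SE 0.25, edgeR adjusted p = 0.938). Cxcl16, a membrane-bound chemokine, was at 17.3 and 17.8 CPM against 21.7 and 25.02 CPM (0.41, SE 0.15, edgeR adjusted p = 0.938). Nfkbiz, Ccl2 and Cxcl16 did not overlap.

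Macrophage genes were mixed. Lyve1, a hyaluronan receptor of macrophages along vessels and of lymphatic endothelium, was at 8.66 and 9.30 CPM in sham and at 4.96 and 6.81 CPM in CPIP+Veh (-0.61, SE 0.17, edgeR adjusted p = 0.893). Mpeg1, a pore-forming protein of macrophages, was at 37.1 and 38.2 CPM against 44.9 and 47.7 CPM (0.30, SE 0.09, edgeR adjusted p = 0.938). Lyz2, lysozyme, was at 315 and 252 CPM against 417 and 381 CPM (0.49, SE 0.15, edgeR adjusted p = 0.938). None of the 3 overlapped, and Lyve1 lay on the opposite side from the others. Among complement genes (25 members, median -0.01) 1 was higher and 1 lower at an unadjusted edgeR p under 0.05: Cd59, which blocks the membrane attack complex, at 643 and 642 CPM against 731 and 713 CPM, and Cfd, factor D, at 6.50 and 6.40 CPM against 3.85 and 4.79 CPM.

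Genes of vessel walls and connective tissue lay lower in CPIP+Veh. In bulk samples such as these, fewer cells of a type and less RNA per cell cannot be told apart. Of 23 pericyte and smooth muscle markers, 19 had a log2 fold change below 0 (background 51%), 14 lay wholly below sham (background 19.5%) and 1 wholly above, and the median was -0.26. At an unadjusted edgeR p under 0.05, 7 were lower and 0 higher, DESeq2 called 2 lower, and 0 of the 23 were among the genes edgeR called. The median lay between -0.35 and -0.25 in the fits without 1 library and with the replicate block.

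The contractile proteins led that list. Acta2, smooth muscle actin, was at 30.5 and 27.5 CPM in sham and at 12.9 and 16.5 CPM in CPIP+Veh (-0.98, SE 0.16, DESeq2 adjusted p = 0.0018, edgeR adjusted p = 0.377). Myh11, smooth muscle myosin, was at 41.2 and 35.0 CPM against 23.9 and 24.6 CPM (-0.65, SE 0.12, DESeq2 adjusted p = 0.0254, edgeR adjusted p = 0.477). Tagln, transgelin, was at 30.2 and 28.1 CPM against 12.1 and 18.1 CPM (-0.95, SE 0.25, edgeR adjusted p = 0.85). All 3 lay below sham without overlap. The pericyte genes differed less: Rgs5, a regulator of G protein signalling, was at 10.5 and 9.30 CPM against 7.80 and 7.62 CPM (-0.36, SE 0.12, edgeR adjusted p = 0.938), and Pdgfrb, the PDGF receptor, overlapped at 53.1 and 61.2 CPM against 59.1 and 46.3 CPM. Kcnmb1, the smooth muscle subunit of the BK potassium channel, was the lower member of the potassium channel list, at 1.90 and 1.15 CPM against 0.506 and 0.706 CPM.

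Endothelial markers followed with smaller differences. Of 22 tested, 3 had a log2 fold change above 0, and 11 lay wholly below sham and 0 wholly above (background 19.5% and 17.6%). At an unadjusted edgeR p under 0.05, 6 were lower and 0 higher, and the median was -0.13. Without Sham+Veh 2 the count of 6 became 1, without CPIP+Veh 2 it was 2 and without CPIP+Veh 1 it was 3. Eng, endoglin, was at 34.6 and 40.3 CPM in sham and at 24.9 and 29.2 CPM in CPIP+Veh (-0.47, SE 0.12, edgeR adjusted p = 0.85). Plvap, a protein of fenestrated capillaries, was at 12.7 and 10.6 CPM against 6.13 and 7.36 CPM (-0.78, SE 0.22, edgeR adjusted p = 0.938). Kdr, the main VEGF receptor, was at 22.96 and 24.95 CPM against 20.1 and 18.2 CPM (-0.33, SE 0.09, edgeR adjusted p = 0.938). These 3 did not overlap, whereas Cldn5, a tight junction protein, did, at 46.7 and 42.2 CPM against 43.5 and 36.5 CPM.

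Fibroblast and matrix genes gave the largest number of members wholly below sham, 27 of 41 (background 19.5%), with 2 wholly above. The median was -0.18, and 7 were lower and 1 higher at an unadjusted edgeR p under 0.05. Without CPIP+Veh 1, in which most of these genes were lower than in CPIP+Veh 2 (37 of 41), 3 were lower and the median was -0.12, and without CPIP+Veh 2 15 were lower. With the replicate block 16 were lower, without Sham+Veh 2 4 were, and 13 were without either CPIP+ETA library or without both. Beside Gsn, Col15a1, a collagen of vascular basement membranes, was at 32.8 and 40.6 CPM in sham and at 21.3 and 22.9 CPM in CPIP+Veh (-0.73, SE 0.11, DESeq2 adjusted p = 0.00363, edgeR adjusted p = 0.375). Eln, elastin, was at 29.4 and 29.8 CPM against 8.15 and 18.01 CPM (-1.18, SE 0.35, edgeR adjusted p = 0.938). Col1a1, the main fibrillar collagen, was at 793 and 936 CPM against 592 and 793 CPM (-0.32, SE 0.16), with Sham+Veh 1 and CPIP+Veh 2 at almost the same level. Timp1, an inhibitor of matrix metalloproteinases, lay on the other side at 41.9 and 47.9 CPM against 54.2 and 57.6 CPM (0.32, SE 0.11, edgeR adjusted p = 0.938), without overlap.

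Adipocyte transcripts, from a cell type around rather than in the ganglion, moved with the vessel and matrix genes. Adipoq, the adipokine adiponectin, had 34 counts in sham and 0 in CPIP+Veh, at least 12.2-fold lower with the floor of 3 counts for the group. Fabp4, a fatty acid carrier of adipocytes and capillary endothelium, was at 3.84 and 1.42 CPM against 0 and 0.202 CPM. Adipoq, Fabp4 and Plin1 together summed to 6.23 and 2.35 CPM in sham and to 0.203 and 0.353 CPM in CPIP+Veh, with none of the 3 at 0 in all libraries. Of the 9 adipocyte markers tested, 4 lay wholly below sham and 0 wholly above (background 19.5% and 17.6%). At an unadjusted edgeR p under 0.05, 3 were lower. The part of these transcripts in the vessel and matrix results was not tested.

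**Figure D4:**
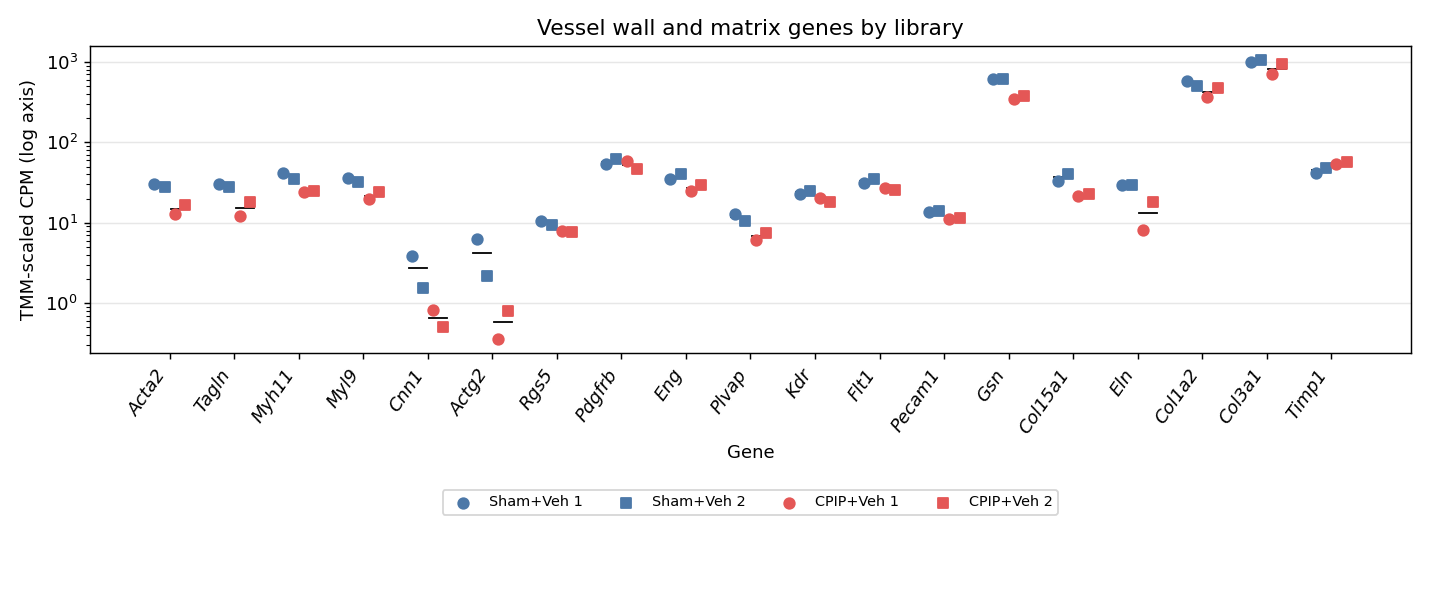
Level in each library (TMM-scaled CPM, log axis) of smooth muscle and pericyte genes, endothelial genes and matrix genes from left to right, with colours and shapes as in the plot of injury genes. The red points lie below the blue ones for most genes drawn; Pdgfrb overlaps and Timp1 lies above sham.

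Glia showed little difference. The 20 satellite glia markers had a median of -0.02, with 1 higher and 1 lower at an unadjusted edgeR p under 0.05: Sostdc1, a secreted antagonist of BMP and Wnt, at 48.3 and 43.7 CPM in sham and 53.8 and 79.8 CPM in CPIP+Veh, and Sparcl1, a matricellular protein of glia and vessels, at 318 and 290 CPM against 276 and 274 CPM. Schwann cell myelin genes had a median of 0.01 over 21 members, and 0 were higher and 0 lower at an unadjusted edgeR p under 0.05. They varied between libraries of a group instead: relative to the sham mean the median member stood at -0.16 and 0.16 (log2) in sham and at 0.11 and -0.10 in CPIP+Veh. Cholesterol synthesis enzymes, which supply myelin and growing membranes, had a median of 0.09 over 24 members. Of these, 11 lay wholly above sham and 0 wholly below (background 17.6% and 19.5%), but 1 had an unadjusted edgeR p under 0.05. That was Srebf2, the transcription factor that controls the pathway, at 137 and 135 CPM against 148 and 161 CPM (0.18, SE 0.06, edgeR adjusted p = 0.938). Genes of cell division had a median of 0.28 over 28 members, with 13 wholly above and 1 wholly below sham (background 17.6% and 19.5%). At an unadjusted edgeR p under 0.05, 2 were higher and 0 lower. Mki67, the proliferation marker, was at 4.44 and 4.10 CPM against 5.06 and 7.52 CPM (0.56, SE 0.23, edgeR adjusted p = 0.938). The median of cell division genes was 0.09 without CPIP+Veh 2, with 0 higher, and 0.50 without CPIP+Veh 1, with 6 higher.

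Stress and activity genes gave mixed counts. The 32 genes of the hypoxia-inducible factors and their targets had a median of 0.00, and 1 was higher and 0 lower at an unadjusted edgeR p under 0.05: Hif1a, the oxygen-regulated subunit, at 72.6 and 78.1 CPM in sham and 83.2 and 84.4 CPM in CPIP+Veh (0.15, SE 0.06, edgeR adjusted p = 0.938). Of 35 antioxidant genes (median 0.02, 2 higher and 2 lower), 12 lay wholly above sham and 9 wholly below (background 17.6% and 19.5%). Among them Prdx1, a peroxiredoxin, was at 181 and 189 CPM against 227 and 224 CPM (0.29, SE 0.06, edgeR adjusted p = 0.695). Sod2, the mitochondrial superoxide dismutase, was at 196 and 205 CPM against 263 and 233 CPM (0.30, SE 0.09, edgeR adjusted p = 0.938). Both lay above sham without overlap. Immediate early genes, which neurons and other cells switch on within minutes of activity or handling, had a median of -0.07 over 25 members with 1 higher, Atf3, and 3 lower. Egr1 was at 6.50 and 9.25 CPM against 3.75 and 4.54 CPM (-0.92, SE 0.25, edgeR adjusted p = 0.897), and Fosb at 1.52 and 5.03 CPM against 0.759 and 1.06 CPM (-1.84, SE 0.59, edgeR adjusted p = 0.938). Egr1 and Fosb lay below sham without overlap. Over the list 3 members, Atf3 among them, lay wholly above sham and 7 wholly below (background 17.6% and 19.5%). Without CPIP+Veh 1 the median was 0.03, with 2 higher and 0 lower; without CPIP+Veh 2 it was -0.16, with 0 higher and 2 lower. Without Sham+Veh 1 there were 0 higher and 4 lower, and without Sham+Veh 2 there were 0 higher and 0 lower.

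The largest gene families gave medians close to 0. Of 84 cytosolic ribosomal proteins (median 0.04), 30 lay wholly above sham and 13 wholly below (background 17.6% and 19.5%). At an unadjusted edgeR p under 0.05, 3 were higher and 6 lower. The 6 became 2 without CPIP+Veh 1 or Sham+Veh 2. Nuclear respiratory chain subunits had -0.01 over 77 members, with 0 higher and 1 lower, and 5 lay wholly above and 22 wholly below (background 17.6% and 19.5%). Rpl38, a ribosomal protein, was at 61.3 and 81.5 CPM in sham and at 47.9 and 46.0 CPM in CPIP+Veh (-0.60, SE 0.15, edgeR adjusted p = 0.824), without overlap. Clustered protocadherins, whose variable exons share reads easily, went both ways: beside Pcdhb3, Pcdhb6 was at 6.01 and 2.63 CPM against 1.16 and 0.656 CPM (-2.24, SE 0.50, edgeR adjusted p = 0.695), and Pcdhga2 at 26.4 and 23.8 CPM against 17.2 and 19.8 CPM (-0.44, SE 0.11, edgeR adjusted p = 0.775). Of 36 protocadherins 14 lay wholly above sham and 6 wholly below (background 17.6% and 19.5%). At an unadjusted edgeR p under 0.05, 6 were higher and 2 lower. The 6 became 3 without CPIP+Veh 2 or without Sham+Veh 1. Of the 29 hereditary sensory neuropathy genes (median -0.01), 2 were higher and 2 lower, Fam134b and Spg7 among them on opposite sides.

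**Figure D5:**
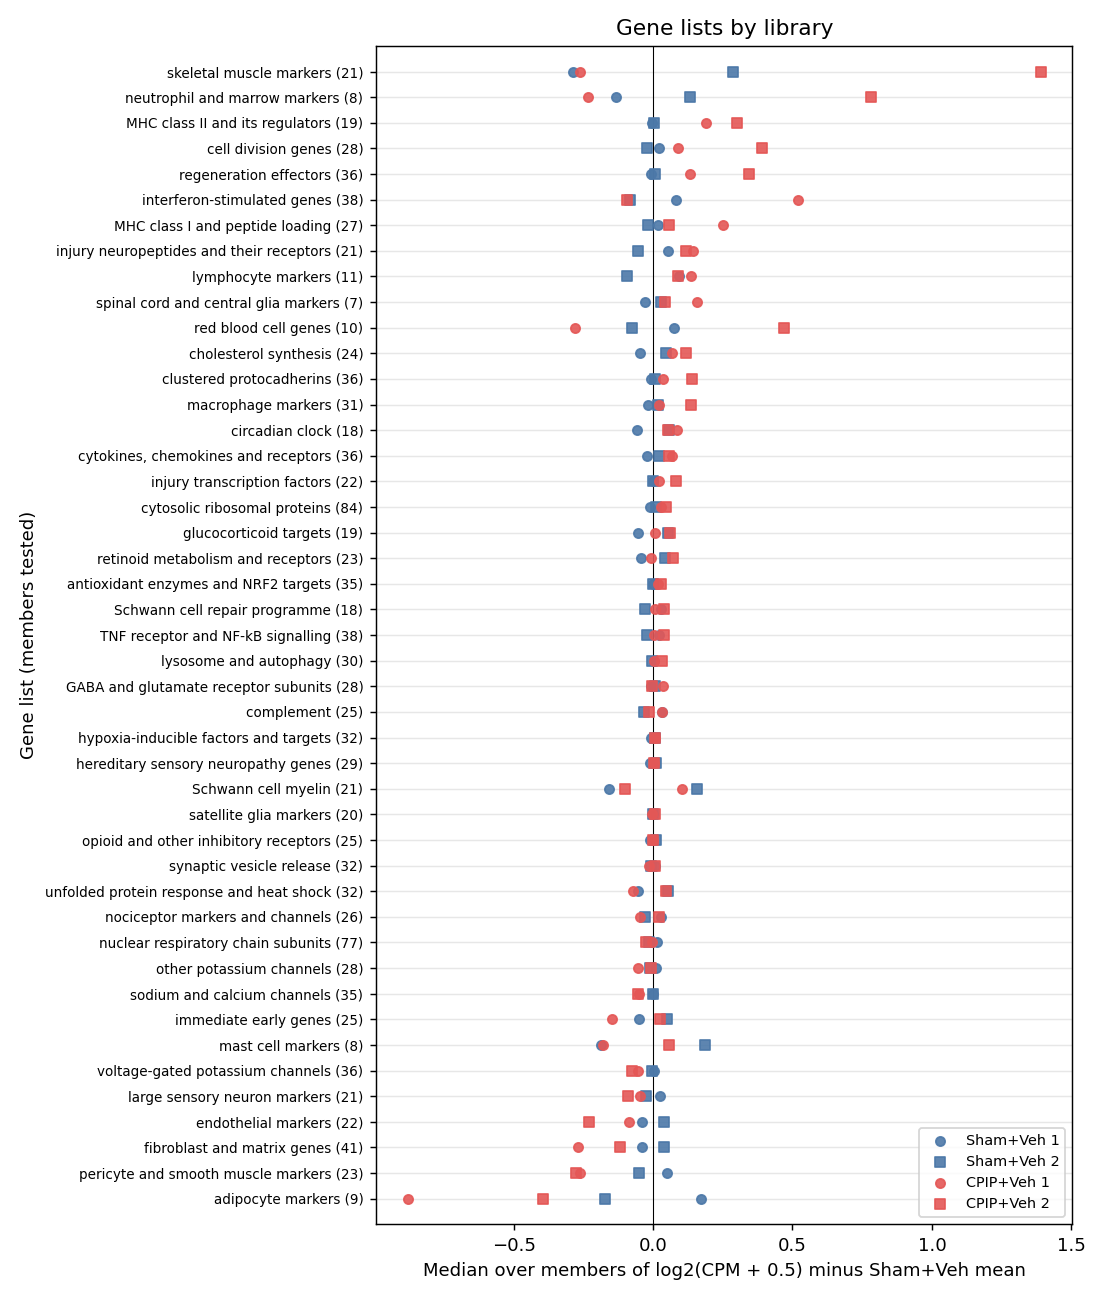
For each of the 45 gene lists, the median over tested members of log2(CPM plus 0.5) minus its mean in Sham+Veh, drawn for each of the 4 libraries with colours and shapes as in the plot of injury genes; numbers in brackets are members tested. Regeneration and class II genes lie right of both sham points in both CPIP+Veh libraries, smooth muscle and matrix genes lie left, and for interferon-stimulated, skeletal muscle and red blood cell genes the red points are far apart.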

How the data were processed

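RNA was extracted with Trizol and sequenced on the BGISEQ-500, per the labels' protocols. The authors deposited 1 table of expected counts (gene-level estimates, often fractional) for 22864 genes; 32.7% of the values were whole. The submitters' processing notes name the Rnor 6.0 build; no source used here names the aligner, the counter or the strand handling. Blank rows (2907) were read as 0 and counts were rounded. All 6 libraries entered 1 edgeR 4.0.16 fit (R 4.3.3; filterByExpr, minimum count 10 and total 15; TMM; group only; quasi-likelihood F-test), which tested 15531 genes; SE is the log2 fold change over the square root of F. Alternatives were DESeq2 1.42.0, limma-voom 3.58.1, other scalings and filters, the 4 libraries alone, a replicate block and each library left out in turn; leaving out libraries under DESeq2 was added after seeing the data.

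The gene lists and the comparison were chosen with earlier results of these data known. Genes named are those called, up to 12 DESeq2-called genes per direction with groups that do not overlap, at least 1 CPM and no provisional symbol, the 3 lowest p-values and marked members of each list described, and TNF genes; others are marked, and a few are not reported here. For genes named by the DESeq2 rule, groups that do not overlap were a condition and not a result. The fit was checked on simulated counts. Intervals and floors cover counting error only.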

Additional observations from a re-analysis of the deposited data

How the results depend on the processing

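The count of genes called by edgeR, 3, was 3 under other scalings and filters, 2 with limma-voom or with the 4 libraries alone, and 1 to 3 without 1 library. DESeq2 called 49, and 18 to 52 without 1 library. The labels state no pairing of samples by replicate number. Across genes the correlation of deviations between the groups was 0.0345. Such a value over all genes does not settle whether parts of the data were paired. Of 41 fibroblast and matrix genes, 30 were higher in Sham+Veh 2 than in Sham+Veh 1, and 37 in CPIP+Veh 2 than in CPIP+Veh 1. Of 21 Schwann cell myelin genes, these counts were 20 and 2. With the replicate block edgeR called 3. The median of a list moved beyond the replicate SD in 85 of 630 refits. For 38 of the 45 lists it did so in at least 1 refit. Over the fits without 1 library the log2 fold change changed sign for Gch1 (-0.45 without CPIP+Veh 2 and -0.42 without Sham+Veh 2; highest 0.69), Irf7 (-0.41 without CPIP+Veh 1, to 0.90), Jun (-0.071 without CPIP+Veh 2, to 0.48), Mx1 (-0.21 without CPIP+Veh 1, to 1.59), Pdgfrb (0.048 without CPIP+Veh 2, down to -0.30), Tnfrsf1a (0.011 without CPIP+Veh 1, down to -0.086), Tnfrsf1b (-0.10 without CPIP+Veh 2, to 0.39) and Trpv1 (-0.013 without CPIP+Veh 2, to 0.089); the cause was not tested. Of 21 lists with a median within 0.05 of 0, 14 changed sign without 1 library, and of 36 lists with at most 3 members past the unadjusted threshold in either direction, 34 had such a count move by over 1.5 times. No limit of detection was measured; Tnf, at 4 to 8 counts, was not tested.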
